A study of Mus musculus with 6 samples.

Results

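Khdc1a, Gldc, Il1r2 and Perp are 4 genes of 19938 measured that read highest in leukemic stem cells carrying BCR-ABL and lower in cells carrying BCR-ABL together with Blk. They were chosen by their group differences on the same 6 arrays described here, in all 3 comparisons, so those differences are given as descriptions, without a test. Each had 1 probe set that named it alone, which was the one used. RNA from mouse bone marrow was measured on whole-transcript arrays, in 3 groups of 2 biological replicates. Donor C57BL/6 mice of wild-type genotype, 8 weeks old, were given fluorouracil, and recipients of that strain received their marrow after infection with retrovirus. The virus carried GFP alone (vector), BCR-ABL and GFP (BCR-ABL), or BCR-ABL, Blk and GFP (BCR-ABL-Blk). At 14 days, GFP-positive, lineage-negative, c-Kit-positive, Sca-1-positive marrow cells were sorted, a gate for stem and multipotent progenitor cells. In the labels these are hematopoietic stem cells for vector and leukemic stem cells otherwise. Neither the promoter of the virus nor the number of mice behind each replicate is stated in the labels.

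The fusion kinase BCR-ABL drives chronic myeloid leukemia. Blk, a kinase related to Src, is best known from B cells. The 4 genes have no common pathway. Khdc1a encodes a KH-domain protein of oocytes and early embryos. Gldc encodes glycine decarboxylase, the mitochondrial enzyme that starts the breakdown of glycine and passes a one-carbon unit to folate. Il1r2 encodes the decoy receptor for interleukin-1, which binds the cytokine but lacks the domain that signals. Perp encodes a membrane protein of the PMP22 family, a target of p53 in apoptosis and a part of desmosomes in epithelia.

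All levels and differences are on the log2 scale after quantile normalization, unless a sentence names another scaling; ± marks the SD, with n = 2 per group. Signal over background was not measured, so folds are ratios of signal and may understate a change from a low level. The median deposited level differed between arrays, from 7.01 to 7.52. Blk itself was at 7.15 and 6.95 in vector, 6.54 and 6.60 in BCR-ABL and 6.95 and 7.01 in BCR-ABL-Blk cells, so the vector and BCR-ABL-Blk arrays overlapped, and the label does not say what form of Blk the virus carried. Kit, a marker of the sort, lay between 10.3 and 10.9 on the 6 arrays, and Ly6a (Sca-1) is not analysed here. By limma at an adjusted p under 0.05, BCR-ABL against vector gave 29 genes (0.145% of the 19938), 24 higher (0.12%) and 5 lower (0.0251%). BCR-ABL-Blk against vector gave 28 (0.14%), 19 higher (0.0953%) and 9 lower (0.0451%). BCR-ABL-Blk against BCR-ABL gave 0 (0%). With shares this small, a count of 0 passed in any list below is near the background. At an unadjusted p under 0.05 the shares were 8.64%, 9.42% and, with 790 genes for BCR-ABL-Blk against BCR-ABL, 3.96%. The labels do not say whether replicates came from separate mice, so p-values measure the spread between these samples, which may be technical.

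**Figure D1:**
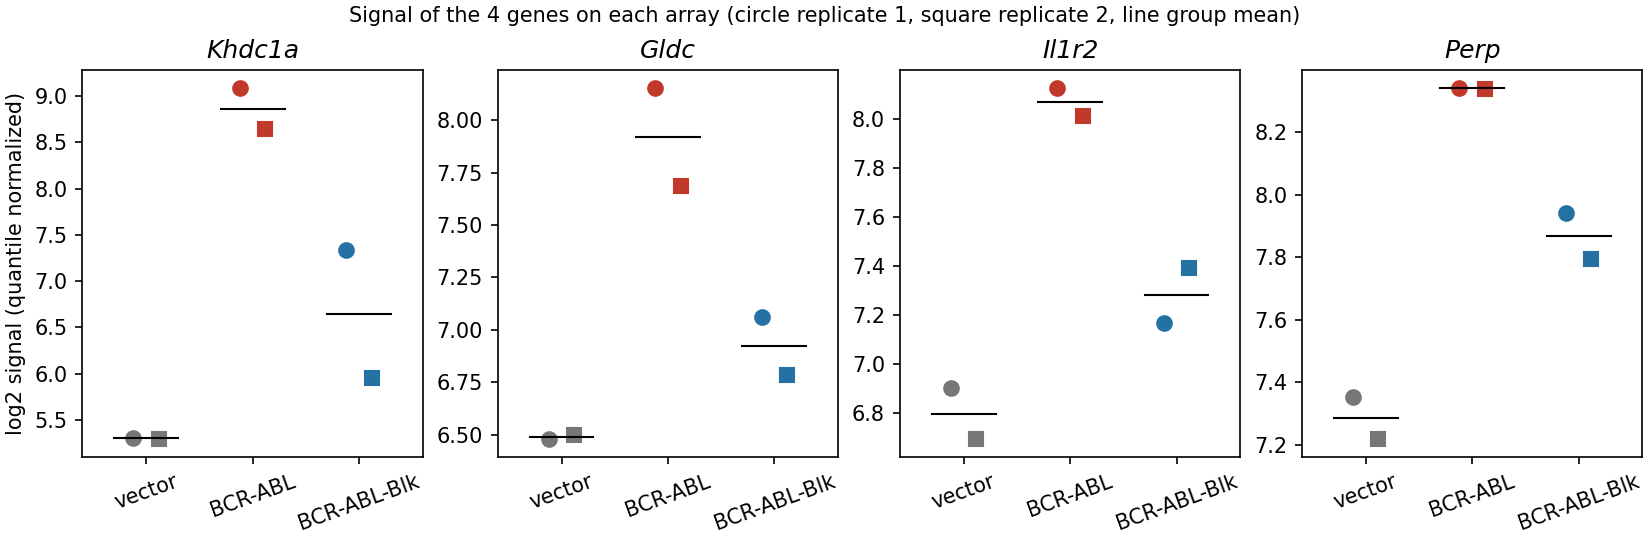
Log2 signal of Khdc1a, Gldc, Il1r2 and Perp on the 6 arrays by group; circles are replicate 1, squares replicate 2 and lines the group means, and each panel has its own vertical axis. In all 4 panels both BCR-ABL arrays lie above the other 4, and the BCR-ABL-Blk arrays lie between; those of Khdc1a are far apart, at 7.34 and 5.95.

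Khdc1a had the largest differences of the 4 genes. It read 5.31 and 5.29 in vector cells, 9.09 and 8.64 in BCR-ABL cells and 7.34 and 5.95 once Blk was added. The vector arrays nearly coincided, both BCR-ABL arrays were far above them, and the BCR-ABL-Blk arrays fell between without overlapping either group. The group means were 5.30 ± 0.01, 8.87 ± 0.32 and 6.64 ± 0.98. BCR-ABL cells thus lay 3.56 above vector cells, an 11.8-fold difference in signal, and BCR-ABL-Blk cells lay 2.22 below BCR-ABL cells (difference −2.22, ratio 0.215). The size of the second difference depended on 1 array: it was −2.91 without BCR-ABL-Blk replicate 1 and −1.52 without BCR-ABL-Blk replicate 2. Against vector, BCR-ABL-Blk cells were higher by 1.34, which was 0.65 without replicate 1 and 2.04 without replicate 2.

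Khdc1a has closely related neighbours, Khdc1c and Khdc1b, listed next to it on the chromosome in RefSeq (GRCm38.p6). Another 2 probe sets are annotated to all 3 of these genes together and cannot be assigned to one. The first read 6.01 and 6.01 in vector, 6.97 and 6.36 in BCR-ABL, and 6.24 and 6.08 in BCR-ABL-Blk cells. Its BCR-ABL arrays were again the highest, though the differences were smaller, at 0.66 above vector and −0.51 from BCR-ABL to BCR-ABL-Blk. The second read 5.72 and 5.83, then 6.34 and 5.91, then 6.19 and 5.86 in the same order of groups. There the BCR-ABL and BCR-ABL-Blk arrays overlapped, with differences of 0.35 and −0.10. Without normalization between arrays the BCR-ABL and BCR-ABL-Blk arrays of both overlapped, and the second difference of the latter probe set was 0.19. Since these copies can share probes, the share of each gene in these signals is uncertain.

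Genes known with Khdc1a from the egg had small differences. A list of Khdc1 relatives and genes of the maternal complex that holds Khdc3 and Ooep had 7 measured members of 9. Khdc1b and Khdc1c were the members not measured, and whether Khdc1a acts with the others was not tested. The median difference was 0.11 between BCR-ABL and vector and 0.09 from BCR-ABL to BCR-ABL-Blk. The medians over all genes were 0.016 and −0.014. Khdc3 and Ooep, subunits of that complex, differed by 0.11 and 0.00 between BCR-ABL and vector, and by 0.24 and −0.16 from BCR-ABL to BCR-ABL-Blk. Of 19 oocyte and germ cell genes, 15 lay below 0 between BCR-ABL and vector (median −0.05). Of the genes in both lists 0 passed in any comparison, where 0.145%, 0% and 0.14% of all genes did, so the count of 0 is near the background. Dazl, an RNA-binding protein of germ cells, was at 0.29 (limma adjusted p = 0.473) and −0.31 (adjusted p = 0.999). Dppa3, a maternal factor of the embryo, was at −0.55 between BCR-ABL and vector, and at −0.95 without vector replicate 1.

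Gldc read 6.48 and 6.50 in vector cells, 8.16 and 7.69 in BCR-ABL cells and 7.06 and 6.78 once Blk was added. The 3 groups did not overlap, and the vector arrays were closest to each other. The means were 6.49 ± 0.01, 7.92 ± 0.33 and 6.92 ± 0.20. BCR-ABL cells were 1.43 above vector cells, or 2.7-fold, and BCR-ABL-Blk cells were lower than BCR-ABL cells (difference −0.998, ratio 0.501). The difference left between BCR-ABL-Blk and vector was 0.44, and ran from 0.30 to 0.57 with single arrays left out.

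A promoter window was held for 2 of the 4 genes, Gldc and Il1r2, and each is shown where its gene is described, since the 4 genes were high on the same arrays. The window is the 250 bases before the start of the gene in RefSeq (GRCm38.p6), 5′ to 3′ on the strand of the gene. That of Gldc is chr19:30175442-30175691, minus strand, with capitals marking a match to the CCAAT box on the reverse strand.

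Gldc: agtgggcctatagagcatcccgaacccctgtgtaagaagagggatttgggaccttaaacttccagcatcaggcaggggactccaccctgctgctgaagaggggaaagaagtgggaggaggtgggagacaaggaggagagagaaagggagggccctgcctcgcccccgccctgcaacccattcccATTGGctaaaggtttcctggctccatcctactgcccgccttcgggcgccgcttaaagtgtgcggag

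The motifs searched, on both strands, were the E-box CACGTG (bound by Myc-Max and USF proteins), the STAT element TTCNNNGAA, the AP-1 element TGACTCA, the TATA box TATAAA and CCAAT, none of which contains another. The window of Gldc held CCAAT once, 66 bases before the start, as 33.8% of the 32851 windows in the table hold it, and none of the other motifs. Its G and C content was 59.6%, against a median of 52.4% over all windows, and it held 8 CpG pairs against a median of 6.0.

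In the other enzymes of the glycine cleavage system, arrays of BCR-ABL and BCR-ABL-Blk cells overlapped. Gcsh, the lipoate-bearing H protein, read 9.99 and 9.27 in vector, 9.98 and 9.90 in BCR-ABL and 9.98 and 9.98 in BCR-ABL-Blk cells. One vector array stood below the rest, and the groups otherwise overlapped. Amt, the aminomethyltransferase, differed by −0.10 between BCR-ABL and vector and by −0.09 from BCR-ABL to BCR-ABL-Blk. Dld, the dehydrogenase shared with other complexes, differed by 0.01 and 0.07. None of these 3 passed in any comparison (limma adjusted p from 0.675 to 0.999). In BCR-ABL-Blk against vector, Gcsh differed by 0.70 without vector replicate 1.

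Around this system, genes of serine, glycine and one-carbon metabolism lay mostly above 0 between BCR-ABL and vector and mostly below 0 from BCR-ABL to BCR-ABL-Blk, by small amounts. Of 26 measured genes of 28, 21 lay above 0 in the first comparison (median 0.15) and 20 below 0 in the second (median −0.12), and 0 passed in either. With single arrays left out the medians ran from 0.09 to 0.21 and from −0.20 to −0.02, the smallest being those without BCR-ABL replicate 1. Both comparisons use the BCR-ABL arrays, so their directions are not independent. Without normalization between arrays the second median was 0.12, below the shift of the median gene. Mthfd2l, a mitochondrial folate dehydrogenase, read 6.87 and 6.55 in vector, 7.44 and 8.19 in BCR-ABL and 7.30 and 6.56 in BCR-ABL-Blk cells. Its BCR-ABL arrays were the highest but lay far apart, with differences of 1.104 (SE 0.30, limma adjusted p = 0.317) and −0.88 (SE 0.30, adjusted p = 0.999).

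Slc6a9, the plasma membrane transporter of glycine, read 7.04 and 6.99 in vector, 7.495 and 7.41 in BCR-ABL and 7.21 and 7.12 in BCR-ABL-Blk cells. Its 3 groups did not overlap and followed the order of Gldc, with differences of 0.44 (SE 0.11, limma adjusted p = 0.237) and −0.29 (SE 0.11, adjusted p = 0.999). Cth, which makes cysteine from cystathionine, differed by 0.26 and −0.23. Shmt2, the mitochondrial enzyme that makes glycine from serine, differed by −0.02 and 0.12, and Phgdh, which starts serine synthesis, by 0.16 and −0.09. Tyms, thymidylate synthase, differed by 0.27 between BCR-ABL and vector, and by 0.59 without vector replicate 1. In the same comparison Mthfd2l differed by 0.99 without normalization between arrays.

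Il1r2 read 6.90 and 6.69 in vector cells, 8.13 and 8.01 in BCR-ABL cells and 7.17 and 7.39 once Blk was added. The groups did not overlap. The means were 6.80 ± 0.15, 8.07 ± 0.08 and 7.28 ± 0.16. BCR-ABL cells were 1.27 above vector cells, or 2.42-fold, and BCR-ABL-Blk cells 0.79 below BCR-ABL cells (difference −0.79, ratio 0.578). BCR-ABL-Blk cells stayed 0.48 above vector cells. Unlike the other 3 genes, Il1r2 was higher on replicate 2 than on replicate 1 of BCR-ABL-Blk.

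The window before the start of Il1r2 is chr1:40085843-40086092, plus strand. Capitals mark both E-boxes and the STAT element.

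Il1r2: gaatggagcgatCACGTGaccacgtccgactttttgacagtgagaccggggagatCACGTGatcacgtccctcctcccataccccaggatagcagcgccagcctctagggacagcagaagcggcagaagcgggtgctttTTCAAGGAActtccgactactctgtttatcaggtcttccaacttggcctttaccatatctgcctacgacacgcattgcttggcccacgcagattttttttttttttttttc

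The E-box CACGTG occurred 2 times, at 238 and 195 bases before the start. Of all 32851 windows 6.02% held it at least once and 0.429% at least 2 times. The STAT element TTCNNNGAA occurred once, at 111 bases, as it does at least once in 7.02% of windows, and the other 3 motifs had no match. The window had 14 CpG pairs at a G and C content of 51.2%. A match describes these letters and is not a shown binding site.

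Il1r2 lies beside the other interleukin-1 family receptors on the chromosome, and in those measured the BCR-ABL and BCR-ABL-Blk arrays overlapped. Il1rl2, a receptor of interleukin-36, read 7.53 and 7.10 in vector, 8.04 and 8.27 in BCR-ABL and 8.13 and 7.68 in BCR-ABL-Blk cells. BCR-ABL and BCR-ABL-Blk arrays overlapped, with differences of 0.85 (SE 0.21, limma adjusted p = 0.235) and −0.25 (SE 0.21, adjusted p = 0.999). Without vector replicate 1 the difference of Il1rl2 between BCR-ABL and vector was 1.06. Il18r1, the receptor chain that binds interleukin-18, read 8.70 and 7.48 in vector, 9.78 and 10.12 in BCR-ABL and 10.08 and 9.93 in BCR-ABL-Blk cells. It was high in both BCR-ABL groups alike, 1.86 above vector (SE 0.35, adjusted p = 0.133) and 0.06 from BCR-ABL to BCR-ABL-Blk (SE 0.35, adjusted p = 0.999). Its differences of BCR-ABL and BCR-ABL-Blk from vector were 2.47 and 2.53 without vector replicate 1. They were 1.25 and 1.31 without vector replicate 2, and 1.76 and 2.04 without normalization between arrays. Il18rap, its partner chain, differed by 0.45 and 0.08.

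Of 7 measured receptors in this list of 9, 6 lay above 0 between BCR-ABL and vector (median 0.36) and 4 below 0 from BCR-ABL to BCR-ABL-Blk (median −0.06), with 0 passed. Leaving out vector replicate 1 or 2 gave a first median of 0.24 or 0.19, leaving out BCR-ABL replicate 1 gave 0.23, and the second median was 0.01 when BCR-ABL replicate 2 was left out. Il1r1, the signalling receptor, and Il1rl1 had no probe set of their own and are not analysed here. Il1rap, the shared accessory chain, differed by 0.36 and −0.27. Among the ligands, Il1a was high on 1 array: it read 5.07 and 5.09 in vector, 4.96 and 7.20 in BCR-ABL and 6.15 and 5.18 in BCR-ABL-Blk cells. Il1b differed by 0.27 and −0.18, and Il1rn, the natural antagonist, by 0.07 and −0.13. Of 7 ligands and antagonists and 15 signalling genes measured, 0 passed in any comparison (medians −0.05 and −0.02 between BCR-ABL and vector, −0.13 and −0.05 from BCR-ABL to BCR-ABL-Blk).

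Perp had the smallest differences of the 4 genes between BCR-ABL and vector and from BCR-ABL to BCR-ABL-Blk. Its BCR-ABL arrays were the tightest after quantile normalization. With arrays centred on their medians they were not (SD 0.11, against 0 for Il1r2). Perp read 7.35 and 7.22 in vector cells, 8.34 and 8.34 in BCR-ABL cells and 7.94 and 7.79 once Blk was added. The 3 groups did not overlap. The means were 7.28 ± 0.10, 8.34 ± 0.00 and 7.87 ± 0.10. BCR-ABL cells were 1.06 above vector cells, or 2.08-fold, and BCR-ABL-Blk cells 0.47 below BCR-ABL cells (difference −0.47, ratio 0.721). Perp kept the largest part of its difference from vector: BCR-ABL-Blk cells were 0.58 above vector cells.

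Tmem47, a close relative, differed by −0.07 and 0.13, and of 5 relatives in the PMP22 family 4 lay below 0 between BCR-ABL and vector (median −0.13) and 0 passed in any comparison. Of 12 desmosome and junction genes measured, 6 lay above and 6 below 0 (median 0.00), with a median of 0.06 from BCR-ABL to BCR-ABL-Blk and 0 passed. Trp63, the p53 relative of epithelia, read 6.61 and 6.66 in vector, 6.52 and 6.66 in BCR-ABL and 6.70 and 6.69 in BCR-ABL-Blk cells. It differed by −0.045 between BCR-ABL and vector and by 0.108 from BCR-ABL to BCR-ABL-Blk. The list of p53, its family and its targets had 27 measured genes of 30. Trp53 itself and the targets Cdkn1a and Bax were not among the measured genes. Between BCR-ABL and vector 17 lay above 0 (median 0.13), and from BCR-ABL to BCR-ABL-Blk 11 did (median −0.07), with 0 passed in any of the 3 comparisons. Leaving out vector replicate 1 or 2 gave a first median of 0.25 or 0.00. Sesn2, a stress-induced sestrin, read 7.06 and 6.92 in vector, 7.39 and 7.34 in BCR-ABL and 7.61 and 7.58 in BCR-ABL-Blk cells. It was highest with Blk, 0.61 above vector (SE 0.11, limma adjusted p = 0.102), and 0.67 above it without vector replicate 1. Pmaip1, the death gene Noxa, was lowest with Blk, at 0.16 between BCR-ABL and vector and −0.38 from BCR-ABL to BCR-ABL-Blk (adjusted p = 0.999). Ei24, an endoplasmic reticulum protein induced by p53, differed by 0.57 and 0.09 and passed between BCR-ABL and vector without vector replicate 1 (0.92, adjusted p = 0.00515) or without normalization between arrays (0.56, adjusted p = 0.00136). Trp53inp1, an inducer of p53 activity, was at −0.70, at −1.15 without vector replicate 2 and at −0.82 without that normalization.

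Of the 10 lists drawn from the pathways and families of the 4 genes, the median changed sign with some array left out in 5 between BCR-ABL and vector and in 7 from BCR-ABL to BCR-ABL-Blk. The first count leaves out the desmosome list, whose median of 0.00 ran from −0.05 to 0.04.

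**Figure D2:**
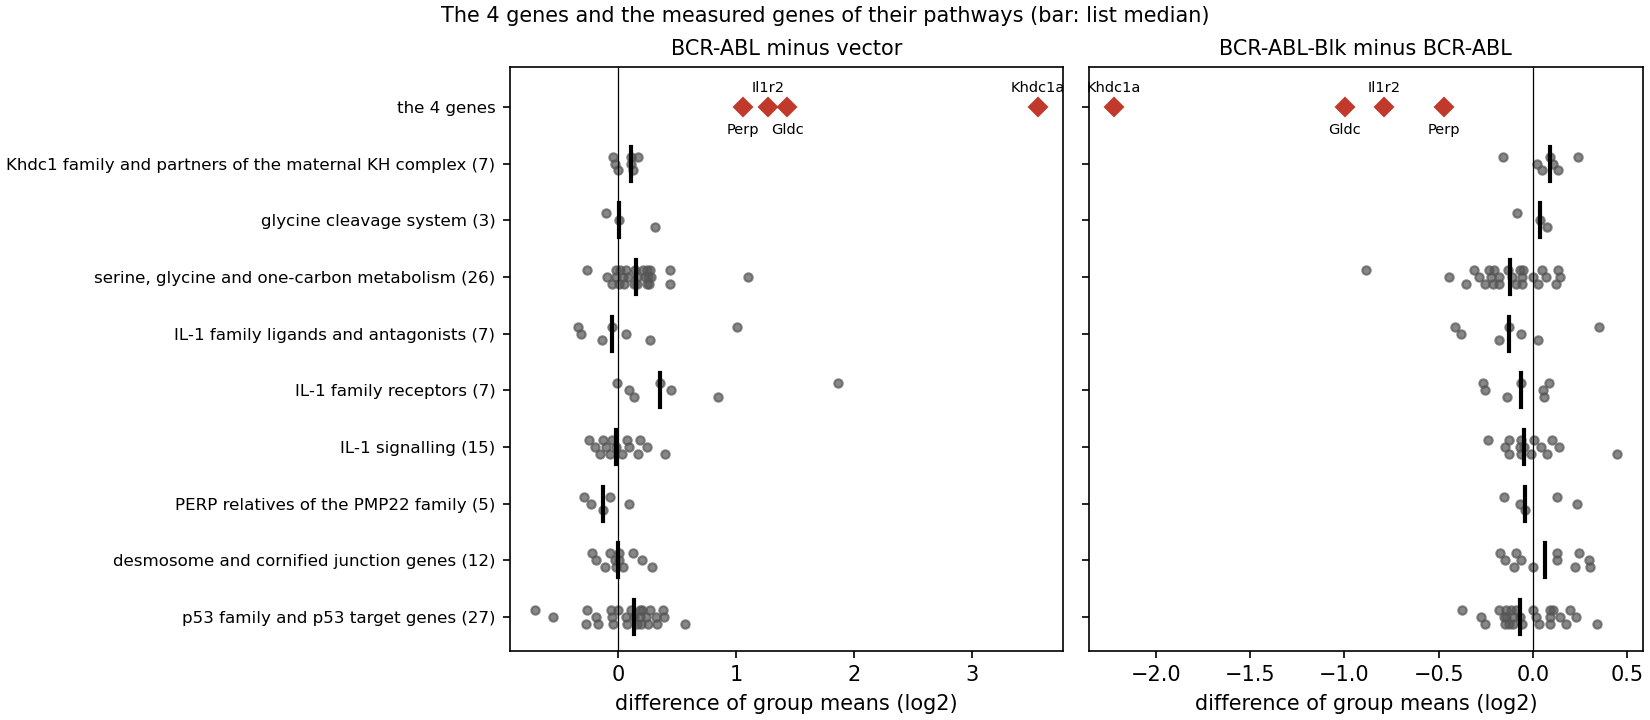
Differences of group means on the log2 scale, BCR-ABL minus vector on the left and BCR-ABL-Blk minus BCR-ABL on the right; diamonds are the 4 genes, grey points the measured genes of each list (number in brackets) and bars the list medians. The medians of all 9 lists lie between −0.13 and 0.36. Single list genes reach 1.86 on the left (Il18r1) and −0.88 on the right (Mthfd2l). The 4 genes, which were picked by these differences, lie from 1.06 to 3.56 on the left and from −2.22 to −0.47 on the right.

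Set against all genes, the direction of the pattern was common, and large differences on both sides were less so. Both BCR-ABL arrays lay above all 4 other arrays for 1646 genes (8.26%) and below them for 929 (4.66%), and the 3 groups followed the order vector, BCR-ABL-Blk, BCR-ABL without overlap for 437 (2.19%), the 4 genes among them. In pairs of groups without overlap, BCR-ABL was above vector for 22.1% of genes and below for 14.9%, BCR-ABL-Blk was below BCR-ABL for 20% and above for 14%, and BCR-ABL-Blk was above vector for 19.7% and below for 17.5%. With 2 arrays per group unrelated values also fall into such orders, and the counts were not set against that share. The mean of BCR-ABL was at least 0.5 above both other means for 67 genes (0.336%) and at least 1 above both for 4 (0.0201%); the opposite pattern held for 29 (0.145%) and 1 (0.00502%). Both comparisons share the BCR-ABL arrays, so a high reading there raises the smaller of the differences from both sides. By that smaller difference Khdc1a ranked 1 (2.22), Gldc 5 (1.00), Il1r2 15 (0.79) and Perp 84 (0.47) of 19938. Perp thus lay under the mark of 0.5. The 4 genes were picked by these same differences, so the ranks only describe that choice.

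On the log2 scale, the difference from vector that BCR-ABL-Blk cells kept was 30.3% of that in BCR-ABL cells for Gldc, 37.7% for Khdc1a, 37.9% for Il1r2 and 55.2% for Perp. With single arrays left out it ran from 20.6% to 40.1% for Gldc, 18.2% to 57.2% for Khdc1a, 29.1% to 46.8% for Il1r2 and 48.2% to 62.2% for Perp. Both ends for Khdc1a came from leaving out a BCR-ABL-Blk array. Without normalization between arrays it was 45.5%, 43.2%, 56.6% and 79.9% in the same order. No gene of the 4 was at the vector level in BCR-ABL-Blk cells. Over the 6 arrays the 4 genes correlated with each other at Pearson r from 0.92 (Khdc1a and Il1r2) to 0.979 (Khdc1a and Gldc), which the choice of genes with 1 pattern on these arrays sets.

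The 3 genes ranked between Khdc1a and Gldc had uneven arrays. Hormad2, a meiotic chromosome protein, ranked 2, but it read 6.04 and 8.49 on the BCR-ABL arrays, so that 1 array carried its mean. S100a5, a calcium-binding protein, read 6.20 and 6.32 in vector, 8.25 and 8.18 in BCR-ABL and 7.83 and 6.47 in BCR-ABL-Blk cells. Its split within BCR-ABL-Blk resembled that of Khdc1a. Tph1, the enzyme of serotonin synthesis in mast cells, read 6.77 and 6.27, then 9.60 and 9.28, then 9.70 and 7.14, with replicate 1 of BCR-ABL-Blk as high as BCR-ABL. Clec4d, a lectin receptor of myeloid cells, read 7.47 and 7.28, then 8.32 and 8.25, then 7.52 and 7.005, where it overlapped vector. Mthfd2l (0.88), Clcn5, a chloride exchanger of endosomes (0.83), Fam20a (0.80), Klhl4 (0.78) and Ddah1, which breaks down dimethylarginine (0.76), followed.

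**Figure D3:**
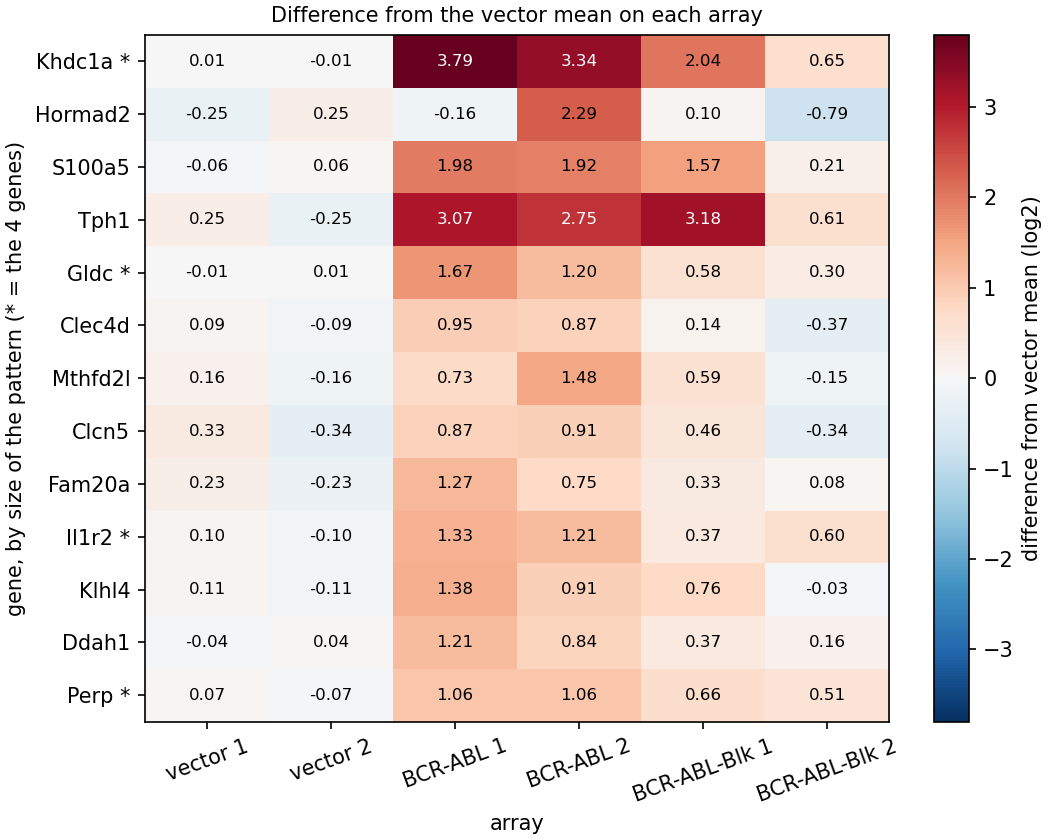
Difference of each array from the vector mean (log2, colour and number) for the 4 genes (asterisk) and the other genes among the 12 with the largest pattern, in order of size. Khdc1a and Tph1 have the darkest BCR-ABL columns. All genes shown except Il1r2 are higher on replicate 1 than on replicate 2 of BCR-ABL-Blk, most clearly Tph1, Khdc1a and S100a5.

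Genes whose level followed each of the 4 most closely were sought among 1021 others that ranged over at least 1 log2 unit; with 6 arrays such values describe likeness only. Gldc was nearest to Ddah1 (r = 0.998), which read 6.46 and 6.55 in vector, 7.71 and 7.34 in BCR-ABL and 6.87 and 6.67 in BCR-ABL-Blk cells. Next to Gldc came Khdc1a (0.979), Kcne3, a potassium channel subunit (0.962), and Fam20a (0.947). Khdc1a was nearest to Gldc, then Kcne3 (0.977), S100a5 (0.975) and Ddah1 (0.97). Il1r2 was nearest to the cytokine gene Il4 (0.964), which read 6.91 and 6.85 in vector, 7.68 and 7.89 in BCR-ABL and 7.02 and 7.19 in BCR-ABL-Blk cells. Irak1bp1 (0.962), the cadherin Pcdh7 (0.96) and Perp (0.954) followed. Perp was nearest to Arxes2 (0.988), Il6 (0.986), the prostaglandin receptor gene Ptger3 (0.976) and the growth factor gene Hbegf (0.974). Il6 read 4.28 and 3.84 in vector, 6.01 and 5.92 in BCR-ABL and 5.57 and 5.06 in BCR-ABL-Blk cells.

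Of the 5 protein-coding genes on either side of each of the 4, 40 in all, 34 were measured and 0 passed in any comparison. Of all genes 0.145% passed for BCR-ABL against vector, 0% for BCR-ABL-Blk against BCR-ABL and 0.14% for BCR-ABL-Blk against vector. The count of 0 is thus near the background. Those farthest from 0 lay beside Il1r2, namely Il18r1 (1.86 between BCR-ABL and vector) and Il1rl2 (0.85). Ifngr1, the interferon-gamma receptor near Perp, differed by −0.38 between BCR-ABL and vector and by −0.62 from vector to BCR-ABL-Blk (limma adjusted p = 0.0688). Prkg1, a cGMP-dependent kinase near Gldc, differed by 0.51 between BCR-ABL and vector and by 0.04 from BCR-ABL to BCR-ABL-Blk. In that order, Il22ra2 near Perp differed by −0.55 and −0.05, and Ccdc28a near Perp by −0.12 and 0.61. Tmem14a near Khdc1a differed by 0.18 and −0.48. Uhrf2, next to Gldc, differed by 0.11 and 0.18, and Mbl2 on its other side by 0.02 and −0.10. Tnfaip3, a brake on NF-kB next to Perp, differed by 0.09 and 0.10. Map4k4, next to Il1r2, differed by 0.05 and 0.11, and Gsta3, next to Khdc1a, by −0.11 and 0.12.

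Markers of other cell types were read on the same arrays; the sort left out cells with lineage markers. Genes of mast cells, basophils and eosinophils had a median difference of 0.66 between BCR-ABL and vector, with 12 of 18 above 0, and of −0.35 from BCR-ABL to BCR-ABL-Blk, with 17 of 18 below 0. The second median rested on 1 array: it was −0.59 without BCR-ABL-Blk replicate 1 and 0.03 without BCR-ABL-Blk replicate 2. The first was 0.44 without BCR-ABL replicate 2. Of these, Gzmb passed between BCR-ABL and vector (3.25, limma adjusted p = 0.0187) and 0 passed from BCR-ABL to BCR-ABL-Blk. Their summed level (log2 of the sum of signals) was 13.07 and 13.14 in vector, 13.54 and 13.66 in BCR-ABL, and 13.74 and 12.75 in BCR-ABL-Blk cells, with replicate 1 of BCR-ABL-Blk the higher, as for Khdc1a. Cpa3, the mast cell carboxypeptidase, read 9.87 and 9.56, then 11.39 and 11.47, then 11.87 and 10.28 in the same order. In RNA of sorted populations, fewer cells of a type and less RNA per cell cannot be told apart. The part of these cells in the levels of the 4 genes was not tested.

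Neutrophil genes, named here because neutrophils express Il1r2, had a median of −0.27 between BCR-ABL and vector and of −0.35 from BCR-ABL to BCR-ABL-Blk, with 15 and 16 of 17 below 0 and 0 passed. Leaving out vector replicate 1 or 2 gave a first median of −0.55 or 0.03, and leaving out BCR-ABL replicate 1 or 2 gave −0.07 or −0.44. The second was −0.11 without BCR-ABL replicate 2. Their summed level was 14.7 and 15.3 in vector, 14.6 and 14.8 in BCR-ABL, and 14.5 and 14.3 in BCR-ABL-Blk cells, with overlap of vector and BCR-ABL. Monocyte genes were at −0.88 and −0.04 (summed level from 12.7 to 13.1 on the arrays with BCR-ABL and 13.9 and 14.0 in vector). Epithelial genes, which go with Perp in skin, had medians of 0.03 and −0.06, with 8 of 12 above 0 between BCR-ABL and vector and 0 passed. Their summed level was 10.4 and 10.4 in vector, 10.6 and 10.6 in BCR-ABL and 10.5 and 10.5 in BCR-ABL-Blk cells. Among them Epcam, an adhesion molecule, was at 0.86 and −0.51 and Krt18 at 0.95 and −0.13, both short of the threshold (limma adjusted p = 0.068 and 0.0583 between BCR-ABL and vector). Without vector replicate 1 Epcam was at 0.93 between BCR-ABL and vector. Hepatocyte genes, which go with Gldc in liver, had medians of −0.03 and −0.07, with 0 of 7 passed and a summed level from 9.27 to 9.55 on the 6 arrays. Arrays give no level of 0, and the part of any of these cell types was not tested.

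The scaling of the arrays changed the second step of the pattern more than the first. Without normalization between arrays the median over all genes shifted by 0.255 from BCR-ABL to BCR-ABL-Blk and by −0.11 from vector to BCR-ABL. Perp then read 8.22 and 8.18 in BCR-ABL and 8.20 and 7.83 in BCR-ABL-Blk cells, so that these groups overlapped and the difference was −0.19. The lowest BCR-ABL array of Khdc1a (8.51), Gldc (7.48) and Il1r2 (7.83) still lay above the highest BCR-ABL-Blk array (7.61, 7.33 and 7.44). On that scale both BCR-ABL arrays lay above all 4 others for 51 genes (0.256%), and for 1679 (8.42%) once arrays were centred on their medians. Centred so, all 4 genes had separate groups.

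**Figure D4:**
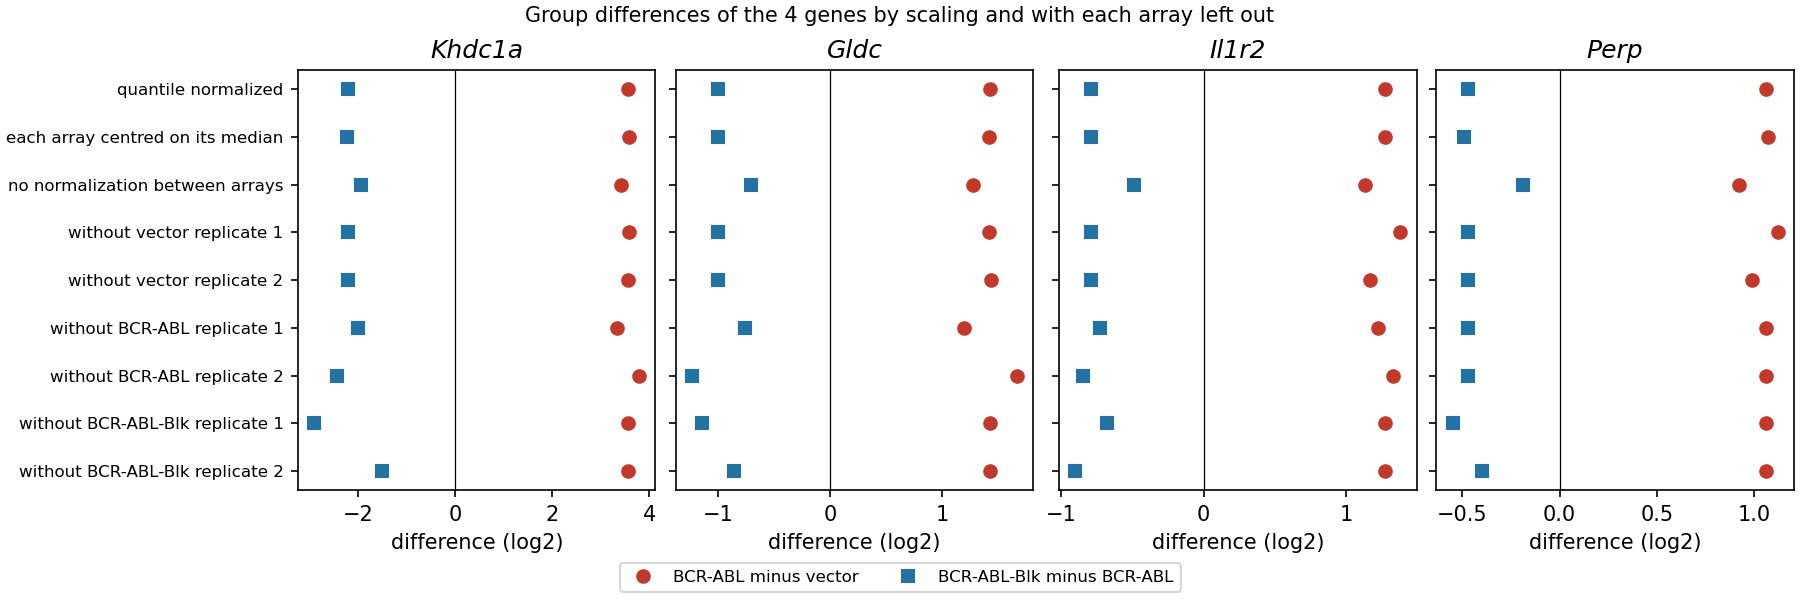
Group differences of the 4 genes on the log2 scale (circles, BCR-ABL minus vector; squares, BCR-ABL-Blk minus BCR-ABL) under 3 scalings and with each array left out; each panel has its own horizontal axis. Circles stay right and squares left of 0 in all panels, with the square of Perp nearest to 0 without normalization between arrays (−0.19).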

How the data were processed

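The deposited values are log2 signals of 35557 probe sets on 6 arrays, made by the authors with Affymetrix Expression Console 1.1 and RMA, per the submitters' processing notes. The sources used here name neither options nor a genome build. Array medians differed, so the arrays were quantile normalized. Symbols came from the platform annotation: 21789 probe sets had 1 symbol, 1621 several and 12147 were unlisted. By Entrez ID 21698 matched RefSeq, with 0 symbols updated. The probe set with the highest mean stood for each of 19938 genes.

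Differences were fitted with limma 3.58.1 (R 4.3.3; lmFit, then eBayes with a trend on intensity), with all 6 arrays in 1 fit. P-values were two-sided and Benjamini-Hochberg adjusted over all genes, called under 0.05. The number of arrays limits the precision: the median SE of a difference was 0.129. The fit was tested on simulated data. Same-numbered arrays did not deviate together (r from −0.0618 to 0.0841 across genes), so numbers were not taken as pairs.

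The 4 genes and the 24 lists were chosen with earlier results of these data known, and give no independent support. Genes named by rule were those called or with the smallest p in a list, the 4 most correlated with each gene, and the 12 with the largest pattern (6 for the opposite). Predicted genes, clones, small RNAs, olfactory or vomeronasal receptors and antigen receptor segments were skipped in the last 2. Other named genes, the neighbours and the promoter motifs were chosen after values were seen. Figures used Python 3.11.15 and matplotlib 3.10.9. Alternatives were other scalings, a block, a filter, all probe sets, no trend and leaving out each array.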

Additional observations from a re-analysis of the deposited data

How the results depend on the processing

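All 12 differences of the 4 genes kept their sign in every setting tried. The genes were picked by these differences, so this gives no independent support. Without normalization between arrays, Gldc was at −0.70 (BCR-ABL-Blk minus BCR-ABL) and 0.58 (BCR-ABL-Blk minus vector). Il1r2 was at 1.13 (BCR-ABL minus vector), −0.49 and 0.64, and Perp at 0.92, −0.19 and 0.74. These moved by more than the pooled SD of the groups compared, from 0.07 for Perp to 0.27 for Gldc here. The pooled SD is the root mean square of their SDs. The Khdc1a values and those with centred medians did not move so far. The replicate block could not move any difference, since every group holds both replicate numbers. With 1 array left out, BCR-ABL minus vector ran from 3.34 to 3.79 for Khdc1a, 1.20 to 1.67 for Gldc, 1.17 to 1.38 for Il1r2 and 0.99 to 1.12 for Perp. BCR-ABL-Blk minus BCR-ABL ran from −2.91 to −1.52, −1.23 to −0.76, −0.90 to −0.68 and −0.55 to −0.40, and BCR-ABL-Blk minus vector from 0.65 to 2.04, 0.30 to 0.57, 0.37 to 0.60 and 0.51 to 0.66, in the same order. Each gene had 1 probe set of its own, so a mean over probe sets changed nothing.

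The counts of called genes depended on the processing. For BCR-ABL minus vector (29) they were 401 (176 higher) without normalization between arrays, 15 without the intensity trend, 53 above the median level, 1 over all probe sets, and 1 to 507 without single arrays. For BCR-ABL-Blk minus vector (28) they were 732 (562 higher), 4, 71, 1, and 4 to 560. For BCR-ABL-Blk minus BCR-ABL (0) they were 79 (66 higher) without normalization, 0 to 2 without single arrays, and 0 otherwise. Of these, 507 and 560 left out vector replicate 1, 214 and 227 vector replicate 2, 1 and 4 either BCR-ABL array, and 10 (BCR-ABL-Blk minus vector) and 2 (BCR-ABL-Blk minus BCR-ABL) BCR-ABL-Blk replicate 1. With the replicate block the counts were 29, 23 and 0; nothing in the labels pairs the numbers. Of 648 counts over the 24 lists in other settings, 144 moved by over 1.5 times. The shares of the difference kept and the list medians with arrays left out were added after seeing the data. The causes were not tested.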

Other observations

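The opposite pattern, lowest in BCR-ABL cells, was led among named genes by B cell genes. Vpreb1, the surrogate light chain of early B cells, read 12.63 and 11.57 in vector, 10.24 and 10.49 in BCR-ABL, and 11.41 and 10.84 in BCR-ABL-Blk cells. Cd79a, a signalling chain of the B cell receptor, read 8.63 and 7.31, then 6.13 and 6.72, then 6.81 and 7.55. For both, the vector arrays lay more than 1 log2 unit apart, and the BCR-ABL arrays were the lowest of the 6. Over 14 measured B cell genes the median was −1.76 between BCR-ABL and vector and 0.33 from BCR-ABL to BCR-ABL-Blk, with 13 below 0 in the first, 9 above 0 in the second and 0 passed in either (limma). Leaving out vector replicate 1 or 2 gave a first median of −0.95 or −2.30, and the second was 0.10 without BCR-ABL-Blk replicate 1 and 0.21 without BCR-ABL replicate 1. Tmem229b (10.61 and 11.05, then 9.68 and 9.80, then 10.30 and 10.56) and Fryl (10.02 and 10.16, then 9.21 and 9.68, then 10.19 and 10.29) had closer replicates. Mx2, an interferon-induced GTPase, overlapped between groups, and Zfp459 was back at the vector level with Blk (0.03). These genes were named for their pattern, so the values are descriptions.

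Genes of STAT5 and cytokine feedback, a pathway that BCR-ABL is known to drive, had small median differences. Of 22 measured, 17 lay above 0 between BCR-ABL and vector (median 0.16) and 16 below 0 from BCR-ABL to BCR-ABL-Blk (median −0.10). The first median was 0.28 without vector replicate 1. Gzmb, the same gene as in the mast cell, basophil and eosinophil list, passed against vector in both BCR-ABL groups (3.25 and 2.50). Socs2, a feedback inhibitor, read alike with and without Blk, at 2.69 and 2.75 above vector. Il2ra, the interleukin-2 receptor alpha chain, was at 2.03 and 1.40 above vector. Lcn2, a neutrophil lipocalin, is in the neutrophil list too. It read 8.95 and 9.69 in vector, 9.08 and 9.60 in BCR-ABL and 8.32 and 7.90 in BCR-ABL-Blk cells. It was lowest with Blk (difference −1.23 from BCR-ABL, limma adjusted p = 0.999).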
